A study of Drosophila melanogaster with 33 samples.

Results

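Glycolysis splits glucose into pyruvate in a fixed order of enzymes, and 9 genes of it were followed here in the Drosophila midgut through the onset of metamorphosis. The genes were taken by symbol, in pathway order, as Pgi, Pfk, Tpi, Gapdh1, Pgk, Pglym78, Eno, Ldh and Gpdh1. In the probe annotation 8 of these 9 symbols were found, on 9 probes, out of 9905 named genes and 14064 probes with a value. Pfk had 2 probes and the other genes 1 each. Ldh was not analysed here.

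In the upper part of the pathway a hexose is rearranged (Pgi), phosphorylated at the committed step (Pfk) and, after cleavage by aldolase, its triose phosphates are interconverted (Tpi). In the lower part the triose is oxidised with formation of NADH (Gapdh1), yields ATP (Pgk), is isomerised (Pglym78) and dehydrated (Eno) on the way to pyruvate. Gpdh1 branches off between these parts. It turns dihydroxyacetone phosphate into glycerol 3-phosphate and regenerates NAD+, feeding the glycerol phosphate shuttle and lipid synthesis, and in flies it is best known from flight muscle. The larval midgut digests and absorbs the food of a feeding larva. Feeding stops before puparium formation, and the larval epithelium is then broken down while adult progenitors build a new one.

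The arrays compared midgut RNA of the Canton S strain, a standard wild type of Drosophila melanogaster, at 11 stages. Larvae were taken 18 and 4 h BPF (before puparium formation), and prepupae at 0 h, when the puparium forms, and at 2, 3, 4, 5, 6, 8, 10 and 12 h APF (after puparium formation). Each stage had 3 arrays, lettered a, b and c, for which the labels state independent samples, without saying how many animals each held. All animals were untreated and of 1 strain, so stage was the only factor.

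On each array amplified RNA of a stage, labelled with Cy5, was hybridised together with a Cy3-labelled reference. The reference was a mixture of midgut RNA from 10 of the 11 stages, all but 10 h APF. Each value was read as the log2 of the ratio between stage and reference. A value of 0 means a share of RNA equal to that in the pool, and a difference of 1 between stages is a doubling. They do not compare the levels of different genes. The authors state neither base nor direction. The direction was inferred from the mixture: the linear ratio, averaged over the 10 pooled stages, should lie near 1 constant for every gene. The SD of the log2 of that average over 6925 features was 0.115 as read here and 0.497 with the sign reversed, and for the glycolytic genes the average lay between 0.865 (Pglym78) and 1.08 (Pgi). A smaller base gave a smaller SD in either direction, so this check cannot settle the base. Base 2 was assumed, and every fold given here rests on it. Single arrays held 7006 to 13966 values with medians of -0.029 to 0.118. Arrays of 1 stage correlated at 0.59 to 0.86 over genes and arrays of different stages at -0.53 to 0.85. A whole midgut holds several cell types, and fewer cells of a type cannot be told apart from less RNA per cell.

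All 7 glycolytic genes with at least 2 values in every stage changed over the time course (limma's moderated F test), against 56.4% of the 6925 features tested. Their adjusted p-values ran from 5.73e-11 for Pfk to 1.06e-06 for Eno. Tpi had no value on any letter-a array and only 1 at 6 h APF, 21 in all, and was left out of that test. The fold between the highest and the lowest stage mean was 6.56 for Gpdh1, 5.75 for Tpi, 5.53 for Pglym78, 4.75 for Pfk, 4.21 for Pgi, 4.14 for Gapdh1, 2.92 for Pgk and 2.62 for Eno. Over all features the median of this fold was 1.95. Most of the genes shared a dip around puparium formation and a climb through the first hours of the prepupa, while Gpdh1 stayed low until 6 h APF.

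**Figure D1:**
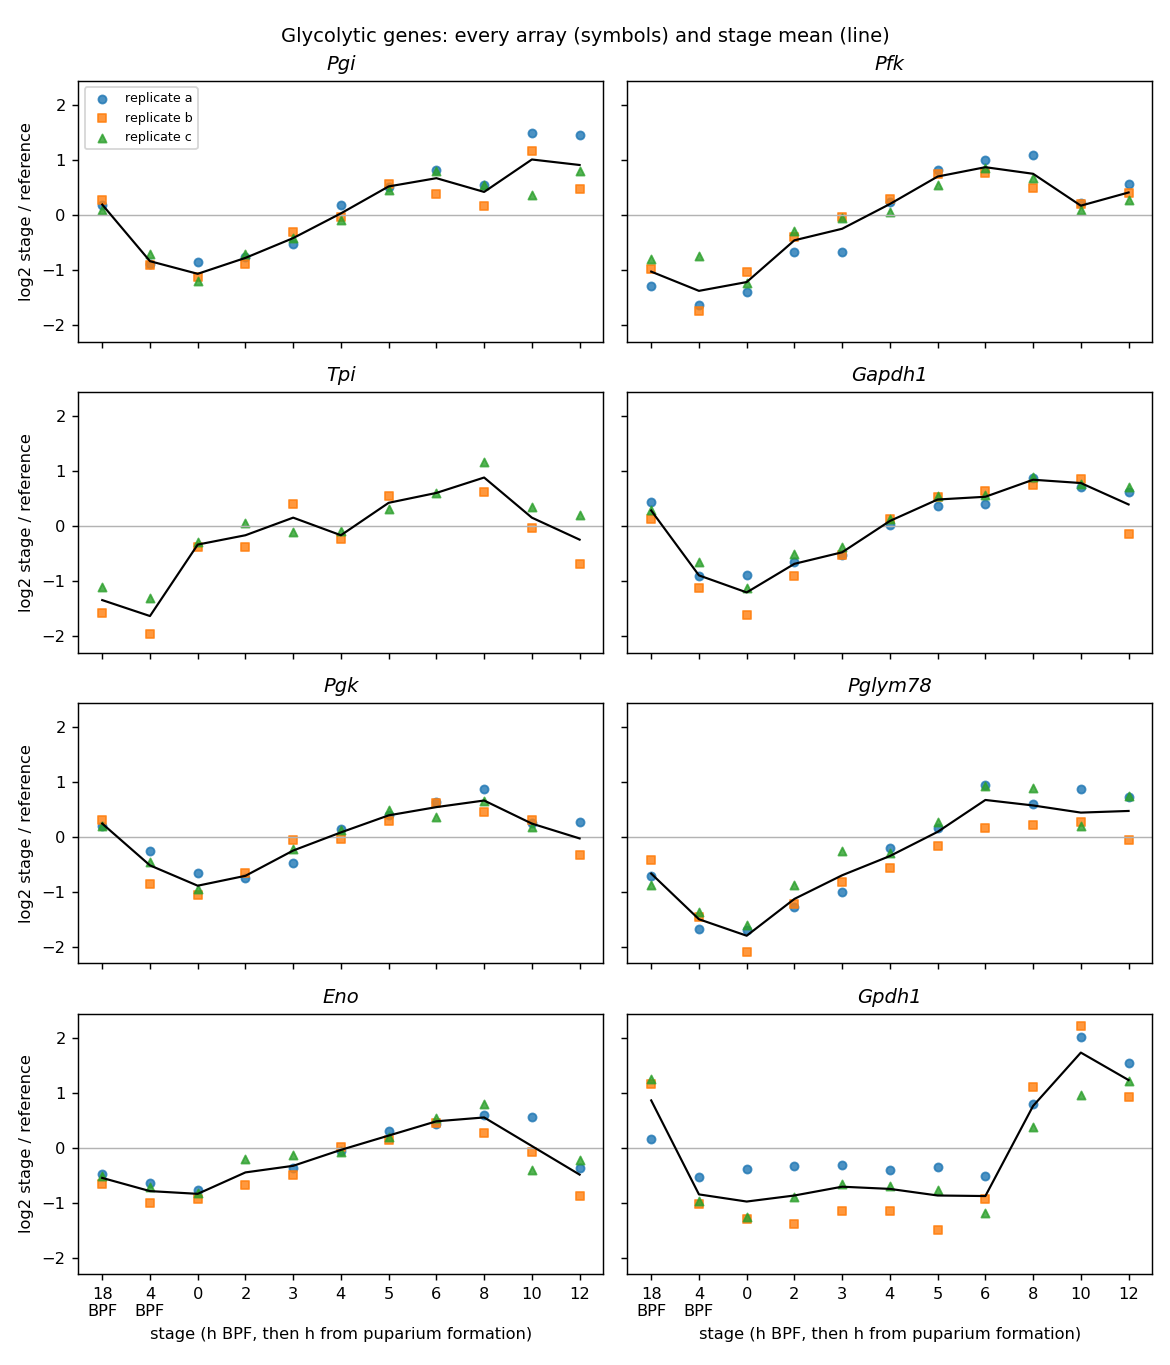
Log2 ratio of stage over reference for each glycolytic gene (vertical axis) at the 11 stages (horizontal axis, evenly spaced), with 1 symbol per array and replicate letter and a line through the stage means. Pgi, Gapdh1, Pgk and Pglym78 have their lowest means at 0 h and climb from 2 to 6 h APF, Tpi has no letter-a values, and Gpdh1 lies below the reference on every array from 4 h BPF to 6 h APF.

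Pgi, glucose-6-phosphate isomerase, read 0.19, 0.27 and 0.10 at 18 h BPF, -0.89, -0.91 and -0.72 at 4 h BPF, and -1.13, -0.85 and -1.21 at 0 h. It then read -0.76, -0.89 and -0.71 at 2 h APF, -0.53, -0.32 and -0.41 at 3 h, 0.19, -0.03 and -0.09 at 4 h, 0.52, 0.57 and 0.46 at 5 h, and 0.83, 0.38 and 0.80 at 6 h. The larval arrays at 18 h BPF thus lay above those at 0 h, and those at 6 h above both. At 8 h Pgi read 0.55, 0.16 and 0.55. The replicates spread more after that, with 1.49, 1.17 and 0.36 at 10 h, and 1.46, 0.47 and 0.80 at 12 h.

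Pfk, phosphofructokinase, the committed step, was low from the start. It read -1.30, -0.99 and -0.81 at 18 h BPF, -1.64, -1.76 and -0.74 at 4 h BPF, and -1.03, -1.40 and -1.23 at 0 h, so that these 3 stages overlapped. After puparium formation it read -0.67, -0.40 and -0.30 at 2 h, -0.67, -0.04 and -0.05 at 3 h, 0.24, 0.29 and 0.06 at 4 h, 0.81, 0.75 and 0.54 at 5 h, and 1.0, 0.77 and 0.85 at 6 h. All arrays at 2 h already lay above all at 0 h. Later values were 1.10, 0.48 and 0.67 at 8 h, 0.22, 0.19 and 0.10 at 10 h, and 0.57, 0.41 and 0.27 at 12 h. The 2 Pfk probes agreed across 31 arrays with a Pearson r of 0.97 and a median absolute difference of 0.14.

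Tpi, triosephosphate isomerase, turned upward earlier than the others, on 2 values a stage. It read -1.59 and -1.12 at 18 h BPF, -1.97 and -1.31 at 4 h BPF, and -0.39 and -0.29 at 0 h. It then read -0.39 and 0.05 at 2 h APF, 0.40 and -0.11 at 3 h, -0.25 and -0.09 at 4 h, and 0.54 and 0.30 at 5 h. The 0 h values thus lay above all larval ones and inside the range of 2 to 4 h. The single value at 6 h was 0.60, followed by 0.61 and 1.16 at 8 h, -0.04 and 0.35 at 10 h, and -0.70 and 0.20 at 12 h.

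Gapdh1, a glyceraldehyde-3-phosphate dehydrogenase, had stage means that increased at each stage from 2 to 8 h APF. It read 0.43, 0.12 and 0.29 at 18 h BPF, -0.91, -1.12 and -0.65 at 4 h BPF, and -1.61, -0.89 and -1.13 at 0 h. It then read -0.67, -0.90 and -0.51 at 2 h APF, -0.52, -0.54 and -0.39 at 3 h, 0.02, 0.12 and 0.13 at 4 h, 0.37, 0.53 and 0.54 at 5 h, and 0.40, 0.63 and 0.57 at 6 h. Every array from 4 h on lay above every array from 4 h BPF to 3 h APF. The late values were 0.88, 0.74 and 0.89 at 8 h, 0.72, 0.86 and 0.76 at 10 h, and 0.61, -0.16 and 0.71 at 12 h.

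Pgk, phosphoglycerate kinase, read 0.21, 0.31 and 0.20 at 18 h BPF, -0.25, -0.85 and -0.46 at 4 h BPF, and -1.07, -0.66 and -0.94 at 0 h. After puparium formation it read -0.75 and -0.66 at 2 h, -0.47, -0.06 and -0.23 at 3 h, 0.13, -0.04 and 0.13 at 4 h, 0.40, 0.29 and 0.49 at 5 h, and 0.63, 0.62 and 0.36 at 6 h. Its peak at 8 h (0.87, 0.46 and 0.65) was followed by 0.24, 0.30 and 0.17 at 10 h and 0.27 and -0.34 at 12 h. It ended near its larval value at 18 h BPF.

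Pglym78, a phosphoglycerate mutase, had the lowest stage mean of the set, at 0 h. It read -0.71, -0.43 and -0.87 at 18 h BPF, -1.67, -1.46 and -1.37 at 4 h BPF, and -2.09, -1.69 and -1.61 at 0 h. It then read -1.27, -1.22 and -0.88 at 2 h APF, -1.01, -0.82 and -0.26 at 3 h, -0.20, -0.56 and -0.30 at 4 h, 0.16, -0.17 and 0.26 at 5 h, and 0.94, 0.16 and 0.92 at 6 h. The arrays at 6 h lay above every array up to 4 h APF. Later it read 0.59, 0.22 and 0.89 at 8 h, 0.87, 0.27 and 0.19 at 10 h, and 0.73, -0.06 and 0.74 at 12 h. A second mutase gene, Pglym87, was measured by 3 probes of its own. Probe sequences were not used here, so shared signal between these paralogs, or between Gapdh1 and Gapdh2, was not tested.

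Eno, enolase, moved least. It read -0.49, -0.66 and -0.51 at 18 h BPF, -0.65, -1.01 and -0.71 at 4 h BPF, and -0.94, -0.77 and -0.83 at 0 h. It then read -0.69 and -0.22 at 2 h APF, -0.37, -0.49 and -0.14 at 3 h, -0.06, 0.01 and -0.07 at 4 h, 0.31, 0.14 and 0.20 at 5 h, and 0.44, 0.45 and 0.55 at 6 h. Each of the stages at 4, 5 and 6 h lay wholly above the one before it. After 0.59, 0.27 and 0.79 at 8 h came 0.56, -0.08 and -0.40 at 10 h and -0.38, -0.89 and -0.22 at 12 h, so Eno was again below the reference at the end.

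Gpdh1, glycerol-3-phosphate dehydrogenase, had 2 high phases with a long low one between. It read 0.16, 1.16 and 1.26 at 18 h BPF, -0.53, -1.03 and -0.97 at 4 h BPF, and -1.29, -0.39 and -1.27 at 0 h. It then read -0.34, -1.39 and -0.90 at 2 h APF, -0.31, -1.15 and -0.66 at 3 h, -0.41, -1.15 and -0.70 at 4 h, -0.36, -1.50 and -0.77 at 5 h, and -0.52, -0.94 and -1.20 at 6 h. These stages overlapped widely. The values at 8 h (0.80, 1.11 and 0.38), 10 h (2.01, 2.22 and 0.97) and 12 h (1.54, 0.93 and 1.22) all lay above them. Its replicates also spread most, with a within-stage SD of 0.47 against a median of 0.28 over all features. The letter-a array of Gpdh1 was the highest of the 3 in 8 of 11 stages. A leading letter was not particular to Gpdh1: letter c was the highest in 7 of 11 stages in both Gapdh1 and Pglym78.

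**Figure D2:**
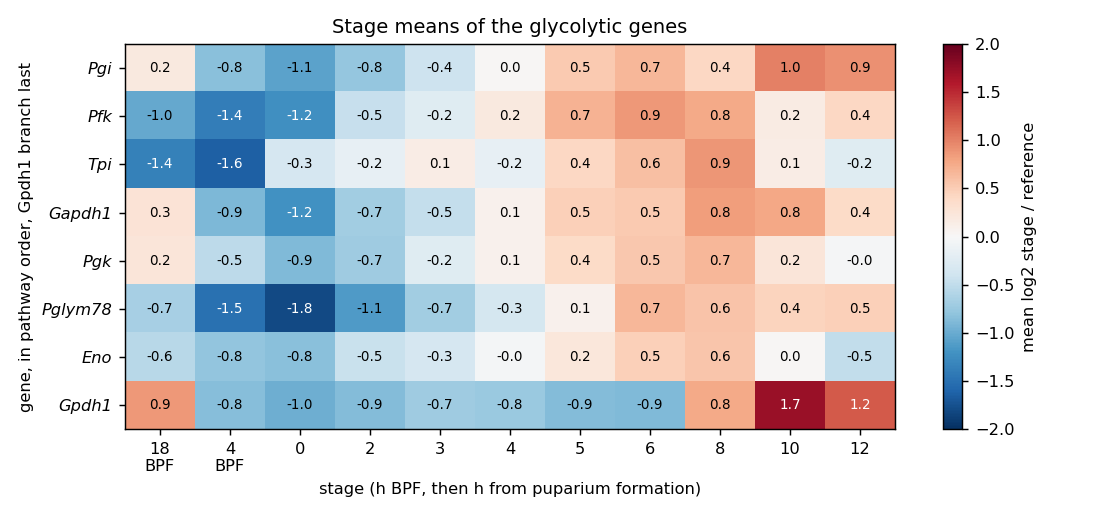
Stage means of the log2 ratio of stage over reference (colour and printed value) for the 8 glycolytic genes, in pathway order from top to bottom with the Gpdh1 branch last, at the 11 stages from left to right. Means are negative from 4 h BPF to 2 h APF in all 8 genes and positive at 5 and 6 h in all but Gpdh1.

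Between 18 h BPF and puparium formation, as the larva stops feeding, 5 of the 8 genes fell, 1 rose and Pfk and Eno did not pass the test. The genes that fell were Gpdh1 (a log2 difference of -1.84 ± 0.35, SE, adjusted p = 0.000267), Gapdh1 (-1.49 ± 0.19, adjusted p = 7.44e-07), Pgi (-1.25 ± 0.22), Pgk (-1.13 ± 0.17) and Pglym78 (-1.13 ± 0.25). Of all 9611 features 7.28% fell and 9.98% rose. The median change was -1.13 over the glycolytic genes and 0.06 over all features. Tpi went the other way, at -0.34 ± 0.07 at 0 h against -1.35 ± 0.33 at 18 h BPF (SD, n = 2 each), a rise of 1.01 ± 0.32 (SE, adjusted p = 0.0356). Centring the arrays on their medians gave 0.95 and an adjusted p of 0.0509 for Tpi, and leaving out any array with a Tpi value leaves it untested at that stage. Pfk stood at -1.22 ± 0.18 at 0 h against -1.03 ± 0.25 at 18 h BPF, and Eno at -0.84 ± 0.09 at 0 h against -0.55 ± 0.10 at 18 h BPF (SD, n = 3 each).

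From 18 to 4 h BPF the same 5 genes fell, against 2.79% of 11438 features: Gpdh1 (-1.70 ± 0.35, SE), Gapdh1 (-1.18 ± 0.19), Pgi (-1.02 ± 0.22), Pglym78 (-0.83 ± 0.25) and Pgk (-0.76 ± 0.17). The Pglym78 call (adjusted p = 0.0404) was lost without any of 4 single arrays, letters a or b at 18 h BPF and a or b at 4 h BPF, with adjusted p-values of 0.065 to 0.158. The Pgk call was lost without 4 h BPF b (-0.59, adjusted p = 0.0512), which left 3 called genes in place of 5, and without 4 h BPF c Pfk fell as well (-0.66, adjusted p = 0.0352). From 4 h BPF to 0 h Tpi rose by 1.30 ± 0.32 (adjusted p = 0.0302), against 1.64% of 9570 features. The Tpi call was lost in a fit of the compared stages alone (adjusted p = 0.0735), and Tpi was untested without any array that held a value of it. No other glycolytic gene was called in that step, and Pgk had an unadjusted p of 0.0425.

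In the first 6 h of the prepupa the enzymes of the main pathway rose together and the branch enzyme did not pass the test. Of the 7 genes tested 6 rose, against 13.4% of 7628 features, while 11.3% of features fell and none of the 7 did. Pglym78 stood at 0.67 ± 0.45 at 6 h against -1.80 ± 0.26 at 0 h (SD, n = 3 each), a 5.53-fold rise (log2 2.47 ± 0.25, SE, adjusted p = 7.38e-09). Pfk rose 4.26-fold (2.09 ± 0.21, adjusted p = 9.87e-09), Gapdh1 3.35-fold (1.74 ± 0.19), Pgi 3.33-fold (1.74 ± 0.22), Pgk 2.69-fold (1.43 ± 0.17) and Eno 2.50-fold (1.32 ± 0.20, adjusted p = 8.12e-06). In each of these 6 genes all arrays at 6 h lay above all at 0 h. The median change of the 7 genes was 1.74, against 0.01 over all features. Gpdh1 was at -0.88 ± 0.34 at 6 h against -0.98 ± 0.51 at 0 h (0.10 ± 0.35, SE, adjusted p = 0.88). Tpi, not tested for want of values, stood at 0.60 at 6 h against a mean of -0.34 at 0 h.

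The fall before 0 h and the rise after it share the 0 h arrays. Comparisons without those arrays held the same directions: the step from 18 to 4 h BPF above, and the change from 2 to 6 h APF, which was added after the values had been seen. From 2 to 6 h the same 6 genes rose, against 4.87% of 8456 features, with 7.17% falling. Pglym78 rose by 1.80 ± 0.25 (SE), Pgi by 1.45 ± 0.22, Pfk by 1.33 ± 0.21, Pgk by 1.24 ± 0.19, Gapdh1 by 1.22 ± 0.19 and Eno by 0.93 ± 0.22. Gpdh1 had a difference of -0.01 ± 0.35. The Eno call (adjusted p = 0.00521) was lost in a fit of the compared stages alone (adjusted p = 0.0514).

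The climb was gradual. From 0 to 2 h Pfk rose by 0.76 ± 0.21 (adjusted p = 0.0264), against 3.62% of 9142 features. That call was lost without 0 h a, 2 h b or 2 h c, with adjusted p-values of 0.0661 to 0.132. No glycolytic gene was called in any of the 4 hourly steps from 2 to 6 h, in which limma called 0 features at all. In these steps 235 of 10527, 303 of 10736, 345 of 10940 and 716 of 8427 features had an unadjusted p under 0.05. Of the glycolytic genes 1 of 8, 2 of 8, 3 of 8 and 1 of 7 had such a p. Stage means first passed the reference at 3 h in Tpi, at 4 h in Pgi, Pfk, Gapdh1 and Pgk, at 5 h in Pglym78 and Eno, and at 8 h in Gpdh1. Tpi was back at -0.17 at 4 h, and Eno stood at -0.04 there. The reference level differs by gene: the linear ratio averaged over the pooled stages was 0.865 for Pglym78 and 0.904 for Eno. These orders were not tested.

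**Figure D3:**
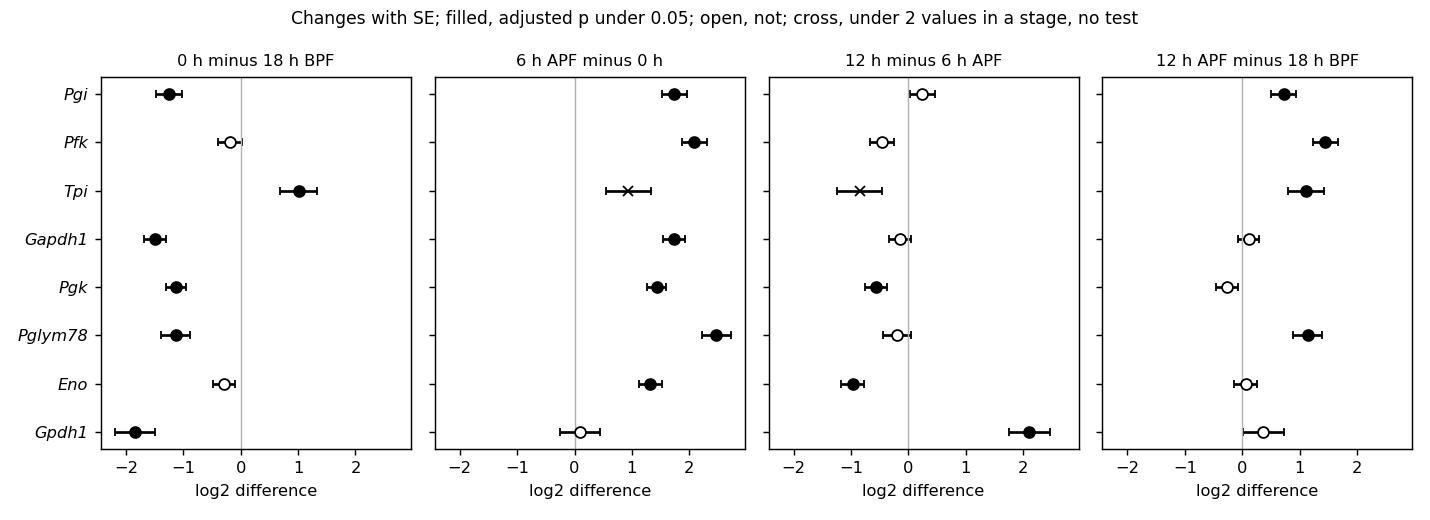
Log2 difference between stages with its SE (horizontal axis) for each glycolytic gene, with 1 panel per comparison, the later stage minus the earlier. Filled points passed an adjusted p of 0.05, open points did not, and crosses had under 2 values in a stage. From 0 h to 6 h APF 6 genes are filled on the right and Gpdh1 is open near 0, and from 6 to 12 h only Gpdh1 is filled on the right.

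From 6 to 12 h APF the genes diverged. Gpdh1 rose, Eno and Pgk fell, and Pgi, Pfk, Gapdh1 and Pglym78 did not pass the test, against 8.48% of 8596 features that rose and 13.2% that fell. Gpdh1 stood at 1.23 ± 0.31 at 12 h against -0.88 ± 0.34 at 6 h (SD, n = 3 each), a 4.31-fold rise (2.11 ± 0.35, SE, adjusted p = 5.74e-05). Eno was at -0.49 ± 0.35 at 12 h against 0.48 ± 0.06 at 6 h, so it fell by 0.97 ± 0.20 (SE, adjusted p = 0.000663). Pgk changed by -0.57 ± 0.19 (adjusted p = 0.0356), a call lost without 6 h a (adjusted p = 0.0919) or 6 h b (0.065) and with centred arrays (0.0671), quantile normalization (0.121) or the compared stages alone (0.196). The median change was -0.20 over the 7 genes and -0.05 over all features.

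The Gpdh1 rise lay mostly between 6 and 8 h, at 1.64 ± 0.35 (SE, adjusted p = 0.00612), against 2.01% of 8440 features. Without 8 h b it was 1.47 with an adjusted p of 0.0517. No glycolytic gene was called from 8 to 10 h or from 10 to 12 h. From 8 to 10 h 6 of 8 had an unadjusted p under 0.05, against 1326 of 11134 features. These 6 went both ways, Pgi and Gpdh1 up and Pfk, Tpi, Pgk and Eno down. From 10 to 12 h 2 of 8 had such a p, against 1524 of 12445 features. The array 10 h c decided these steps. Without it Pgi rose by 0.91 (adjusted p = 0.0111) and Gpdh1 by 1.35 (0.0335) from 8 to 10 h, and Eno fell by 0.73 (0.047) from 10 to 12 h.

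Set against the feeding larva at 18 h BPF, the 12 h prepupal midgut was higher in 4 of the 8 genes and lower in none, while 9.16% of 11916 features rose and 8.23% fell. Pfk rose 2.72-fold (1.45 ± 0.21, SE, adjusted p = 6.43e-06), Pglym78 2.20-fold (1.14 ± 0.25, adjusted p = 0.00108), Tpi 2.15-fold (1.11 ± 0.32, adjusted p = 0.0221) and Pgi 1.65-fold (0.72 ± 0.22, adjusted p = 0.0196). The Pgi call was lost without 18 h BPF a (adjusted p = 0.0509), 18 h BPF c (0.0523) or 12 h a (0.198), and under 3 other settings, and without 18 h BPF c the count was 2 of the 7 genes then tested. The Tpi call was lost in a fit of the compared stages alone (adjusted p = 0.0595), and Tpi was untested without any array that held a value of it at these stages. Gapdh1 (0.11 ± 0.19), Pgk (-0.27 ± 0.19), Eno (0.06 ± 0.20) and Gpdh1 (0.37 ± 0.35) were not called. The median change was 0.54, against -0.03 over all features.

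Whether a gene left the common course was tested by subtracting from each array the mean of the other glycolytic genes measured on it, each centred on its own mean over arrays, and refitting all features. Since that subtraction moves every feature by the common course, 75.1% of all features passed in the late larval, 91.7% in the early prepupal, 15.5% in the late prepupal and 38.6% in the whole-interval change, so that adjustment raised these p-values little. From 18 h BPF to 0 h, 6 of 8 genes passed, a share no larger than that of all features, so the count itself is not a result about these genes. The differences from the other genes were 2.22 ± 0.32 (SE) for Tpi, 0.77 ± 0.25 for Pfk, 0.65 ± 0.19 for Eno, -1.12 ± 0.37 for Gpdh1, -0.73 ± 0.21 for Gapdh1 and -0.45 ± 0.20 for Pgi. From 0 to 6 h Pglym78 (1.13 ± 0.22) and Pfk (0.70 ± 0.25) exceeded the others and Gpdh1 fell behind them (-1.61 ± 0.37, adjusted p = 0.000181). With the median of the other genes in place of the mean, Pgi in the first comparison (-0.40, adjusted p = 0.111) and Pfk in the second (0.41, 0.142) were lost.

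After 6 h Gpdh1 exceeded the others by 2.46 ± 0.37 (adjusted p = 1.03e-05) and Eno fell behind them (-1.11 ± 0.19, adjusted p = 6.67e-05), and no other gene passed. Over the whole interval Pfk (0.97 ± 0.25) and Pglym78 (0.62 ± 0.22) exceeded the others, and Pgk (-0.92 ± 0.22), Eno (-0.64 ± 0.19) and Gapdh1 (-0.57 ± 0.21) fell behind.

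As a description over the 11 stage means, which share arrays and reference, the 15 pairs of genes without Gpdh1 correlated at 0.66 to 0.95 with a median of 0.85. The highest were Pgi with Gapdh1 and with Pglym78, at 0.95 each. The 6 pairs with Gpdh1 correlated at 0.13 (Eno) to 0.67 (Pgi), with a median of 0.48. Tpi was left out of these pairs.

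Among 5520 other named genes with at least 2 values in every stage, the 5 whose stage means correlated most with the mean course of the 7 complete glycolytic genes were CG8785 (0.979), CG8132 (0.978), Gdh (0.977), CG15096 (0.976) and Glys (0.976), over 11 stages. Gdh, glutamate dehydrogenase, had a mean of 1.25 at 8 h APF, against -2.49 at 0 h. CG15096 spanned a wider range, with 2.53 at 10 h, against -4.74 at 0 h. Glys, the glycogen synthase gene, had 1.87 at 8 h, against -2.36 at 0 h.

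**Figure D4:**
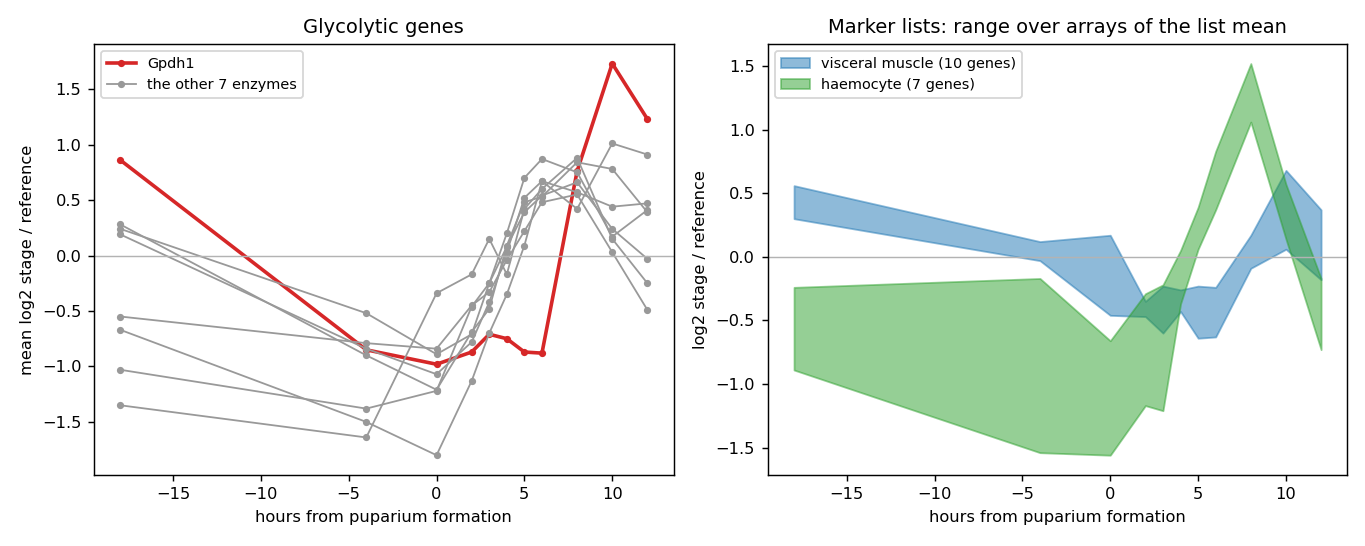
Left, stage means of the log2 ratio of stage over reference (vertical axis) against hours from puparium formation for Gpdh1 (red) and the other 7 glycolytic genes (grey). Right, mean log2 ratio of the visceral muscle (10 genes) and haemocyte (7 genes) marker lists, over the genes with a value on an array. The bands give the range over the arrays of a stage. Gpdh1 and the muscle list both lie above the reference at 18 h BPF and 10 h APF, and the haemocyte list climbs from 3 h to 8 h. At 4 h BPF and 0 h the muscle range spans the reference while Gpdh1 lies below it. At 8 and 12 h the muscle range spans the reference while Gpdh1 lies above it.

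Markers of other cell types in a dissected midgut were set beside these courses. Of 15 visceral muscle genes listed, 10 were measured, and each array was given the mean ratio of those with a value. The means ranged from 0.30 to 0.56 at 18 h BPF, -0.03 to 0.12 at 4 h BPF and -0.46 to 0.17 at 0 h. After that they ranged from -0.63 to -0.24 at 6 h APF, -0.09 to 0.17 at 8 h, 0.06 to 0.68 at 10 h and -0.18 to 0.37 at 12 h. Gpdh1 had stage means of -0.85 at 4 h BPF, 0.76 at 8 h APF and 1.23 at 12 h. Beside the fall of Gpdh1 before 0 h, 4 of the 10 fell (7.28% of all features did), led by Mlc2 (-2.47 ± 0.30, SE). Beside the Gpdh1 rise after 6 h, 3 of 9 tested rose (8.48% of all features did): Mp20 (1.24 ± 0.36), Tm2 (1.16 ± 0.31) and Mf (1.11 ± 0.27). Tm2 alone was called in both intervals, with -1.10 ± 0.31 before 0 h. Mlc2 was not called after 6 h (0.39 ± 0.33), and Mlc1 was not tested there. From 0 to 6 h Gpdh1 was not called and 6 other enzymes rose. In that interval 2 of 9 muscle genes fell, Mp20 (-1.10 ± 0.40) and Mf (-1.02 ± 0.27), against 11.3% of all features. All 7 haemocyte genes were measured, but NimC1, Pxn and crq had under 2 values at 0 h. The array means, over the genes with a value, ran from -1.56 to -0.66 at 0 h and from 0.37 to 0.83 at 6 h. They ran from 1.06 to 1.52 at 8 h and from -0.73 to -0.17 at 12 h. These means do not cover the same genes on every array, and what that adds to their course was not tested. Beside the climb of the other enzymes from 2 to 6 h, 3 of 6 tested haemocyte genes rose, against 4.87% of all features. They were Col4a1 (2.60 ± 0.58), Pxn (2.15 ± 0.31) and NimC1 (1.22 ± 0.38). The tested genes not called were vkg (1.27 ± 0.43), srp (-0.06 ± 0.20) and crq (-0.52 ± 0.20). Of 4 haemocyte genes tested from 0 to 6 h, only Col4a1 (3.45 ± 0.58) was called, while 13.4% of all features rose. Collagen IV genes such as Col4a1 are also made by fat body. The part of muscle or haemocytes in the glycolytic changes was not tested.

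The enterocyte list (7 of 9 measured) stands for the labelled tissue. Its array means, over genes with a value, were 1.62 to 2.77 at 18 h BPF, -0.80 to -0.15 at 0 h and -4.02 to -3.55 at 6 h APF. The 7 genes are 5 digestive protease genes and 2 transcription factor genes. All 5 protease genes fell from 0 to 6 h, against 11.3% of all features. The 2 transcription factor genes were not called in that interval, with differences of -0.45 ± 0.31 (SE) for cad and 0.22 ± 0.26 for GATAe. The progenitor gene esg rose before 0 h (0.95 ± 0.30, SE) and fell from 0 to 6 h (-0.73 ± 0.27). Of the fat body genes (4 of 7 measured) 1 was called in the longer changes, Fbp1, which rose before 0 h (2.12 ± 0.61), and the Malpighian tubule (3 of 4) and salivary gland (2 of 6) genes had none called by limma in the tests they allowed, and none at an unadjusted p under 0.05. No salivary gland gene had the values to be tested from 0 to 6 h, 2 to 6 h or 6 to 12 h, and 1 was tested from 18 h BPF to 0 h. Ratios to a pool of midguts do not show whether such genes are near absence.

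The remaining glycolytic genes were followed as a list, with 6 of 10 measured and 5 tested. Ald1, aldolase, rose by 0.85 ± 0.20 (SE, adjusted p = 0.00185) from 0 to 6 h and fell by 0.82 ± 0.20 (0.00364) from 6 to 12 h. Pglym87 fell by 0.77 ± 0.25 before 0 h and rose by 1.14 ± 0.27 from 0 to 6 h. Of the hexokinases, which admit glucose to the pathway, Hex-A rose late (1.19 ± 0.35 from 6 to 12 h, adjusted p = 0.0141), and Hex-C passed no longer change. Pfrx, the enzyme of the regulator fructose 2,6-bisphosphate, fell from 2 to 6 h (-0.86 ± 0.27). PyK and Gapdh2 were not analysed here.

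Gluconeogenesis uses the same middle enzymes in reverse. Of 4 tested genes 3 fell from 18 h BPF to 0 h, against 7.28% of all features. They were Pepck1 (-2.27 ± 0.36, SE), Pepck2 (-2.13 ± 0.31) and fbp (-0.95 ± 0.30). fbp, fructose-1,6-bisphosphatase, which opposes Pfk, then rose by 1.79 ± 0.30 from 0 to 6 h and fell by 1.06 ± 0.27 from 6 to 12 h, where Pepck2 rose by 2.29 ± 0.31 and Pepck1 by 1.14 ± 0.36. From 0 to 6 h PCB, pyruvate carboxylase, rose (1.15 ± 0.27) and Pepck1 fell (-0.97 ± 0.36).

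The shuttle genes move reducing power between cytosol and mitochondria. Of 9 tested, 4 fell before 0 h, against 7.28% of all features. They were led by Men, the malic enzyme gene (-2.27 ± 0.28, SE), and Got1, an aspartate aminotransferase (-1.97 ± 0.21). From 0 to 6 h 4 of 6 rose, against 13.4% of all features, and Men-b fell (-1.05 ± 0.29). The genes that rose were led by Men (2.67 ± 0.28), Got2 (1.74 ± 0.23) and Mdh1 (1.07 ± 0.26). After 6 h Men rose by a further 2.29 ± 0.28 and Got2 by 0.80 ± 0.23, and Got1 fell by 0.63 ± 0.21. Men thus climbed both with the main pathway before 6 h and with Gpdh1 after it. The partner of Gpdh1 in the shuttle, Gpo1, was not analysed here.

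Genes of storage sugars changed in the same intervals. Of 5 glycogen and trehalose genes tested, 3 fell before 0 h, against 7.28% of all features. They were Glys (-1.51 ± 0.23, SE), the phosphorylase gene Glyp (-1.45 ± 0.28) and Pgm1 (-0.87 ± 0.29). From 0 to 6 h 3 of 5 rose, against 13.4% of all features. Glys rose by 3.07 ± 0.23 (adjusted p = 5.1e-11), Pgm1 by 1.69 ± 0.26 and UGP, which makes UDP-glucose, by 1.25 ± 0.34. After 6 h Treh, trehalase, rose by 3.05 ± 0.74 and UGP by 1.04 ± 0.34, and Glyp fell by 0.99 ± 0.25. Over the whole interval UGP (2.25 ± 0.34) and Glys (1.63 ± 0.23) rose and Glyp fell (-1.87 ± 0.28).

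Of 13 genes of pyruvate entry and the TCA cycle tested, limma called 0 from 18 h BPF to 0 h, with 3 at an unadjusted p under 0.05. Of all 9611 features tested there, 2592 had such a p and 1659 were called. From 0 to 6 h 3 of 12 rose, the isocitrate dehydrogenase subunit gene Idh3b (0.80 ± 0.21, SE), muc of the pyruvate dehydrogenase complex (0.64 ± 0.17) and Scsalpha1 of succinyl-CoA synthetase (0.57 ± 0.17). Pdk, the kinase that inhibits pyruvate dehydrogenase, fell (-1.02 ± 0.29). From 6 to 12 h 3 of 13 fell, Idh3b (-0.93 ± 0.21), Ogdh (-0.93 ± 0.20) and Scsalpha1 (-0.86 ± 0.17). All features rose in 13.4% and fell in 11.3% of cases from 0 to 6 h, and fell in 13.2% from 6 to 12 h, and nothing is read about the list from counts this small. Of 6 pentose phosphate genes listed only Taldo, transaldolase (1.09 ± 0.19 from 0 to 6 h, -0.76 ± 0.19 from 6 to 12 h), and CG8036 (1.54 ± 0.37 from 6 to 12 h) were measured.

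**Figure D5:**
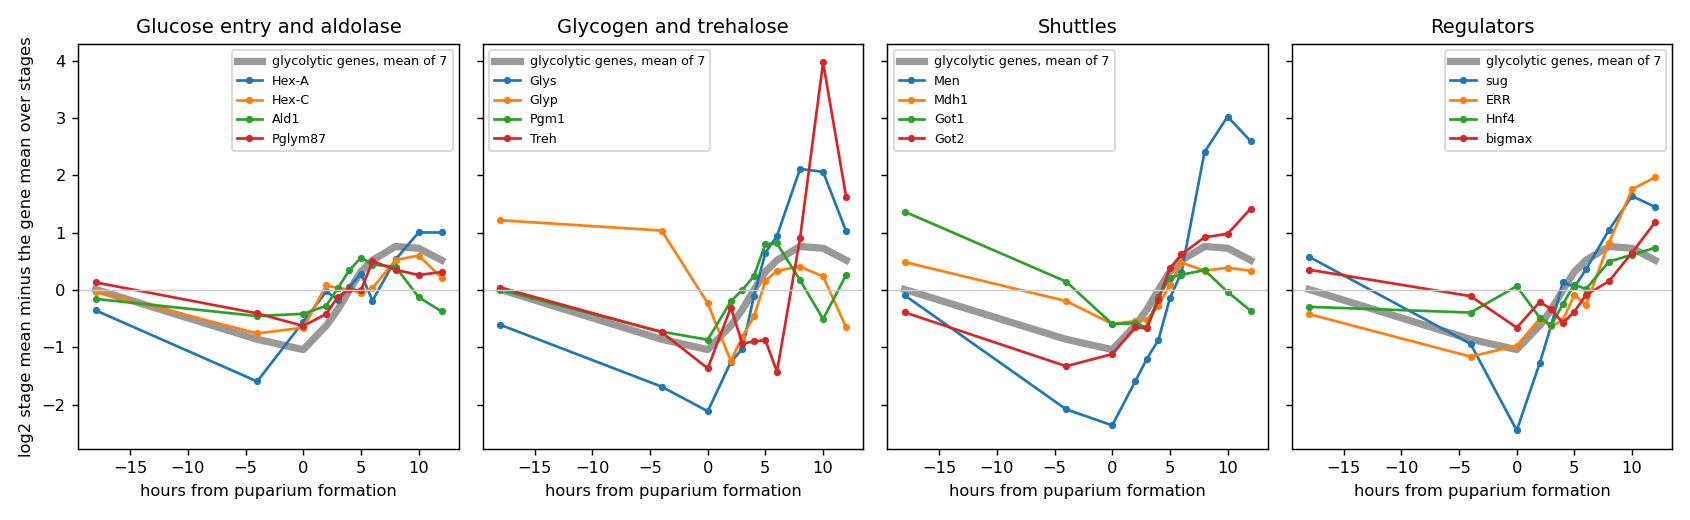
Stage means of selected genes of neighbouring pathways and regulators (coloured lines), each minus its own mean over the 11 stages, against hours from puparium formation; the grey band is the mean course of the 7 complete glycolytic genes, treated likewise. The genes drawn were chosen after their values were seen. Glys, Men and sug dip at 0 h with the glycolytic genes, and Men, ERR and Treh are highest at 10 or 12 h.

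Candidate regulators changed on both sides of puparium formation. ERR is the nuclear receptor that activates glycolytic genes in Drosophila embryos, and Mondo, bigmax and sug (sugarbabe) are transcription factors of the sugar response. Before 0 h sug fell by 3.03 ± 0.28 (SE, adjusted p = 4.3e-09) and bigmax by 1.01 ± 0.24, of 7 tested. Of all features 7.28% fell in that interval, and 13.4% rose from 0 to 6 h. From 0 to 6 h sug rose by 2.82 ± 0.28 (adjusted p = 6e-09), the only one of 6 tested to be called. ERR had a difference of 0.71 ± 0.33 in that interval (adjusted p = 0.125). Its stage mean was -0.41 ± 0.07 at 6 h, against -1.12 ± 0.07 at 0 h (SD, n = 2 each).

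From 6 to 12 h 5 of 6 regulators rose, against 8.48% of all features. Among them were ERR (2.22 ± 0.30, SE), bigmax (1.27 ± 0.21) and sug (1.09 ± 0.31). Relative to 18 h BPF 5 of 7 regulators were higher at 12 h, against 9.16% of all features. They were led by ERR (2.39 ± 0.27), Mondo (1.27 ± 0.28) and Hnf4 (1.03 ± 0.18).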

How the data were processed

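Midgut RNA was measured at 11 stages on 33 two-colour arrays, 3 per stage. The deposited values were read as log2 ratios, 1 per probe and array. Neither base nor direction is stated, and the sources used here do not give the background correction or normalization used by the authors. Probes were named through GEO's platform annotation, with symbols updated from RefSeq, and probes of a gene were averaged, which gave 13141 features. Values were used as deposited.

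Stages were compared with limma 3.58.1 in R 4.3.3, in 1 fit over all arrays and features, for features with at least 2 values in each compared stage. Benjamini-Hochberg adjustment ran over all features tested, with a threshold of 0.05, and the script was tested on simulated data. Matplotlib 3.10.9 drew the figures, and pandas 2.3.3 under Python 3.11.15 made the tables. The number of arrays limits the precision, since intensities were not used here. The glycolytic genes and all lists were chosen with earlier results of these data known. The text names every glycolytic gene, up to 3 called genes per pathway list and direction in each longer change, and the 5 genes most like the mean course. Outside the storage sugar and regulator lists, whole-interval calls of the pathway lists are given only here, as log2 differences. Hex-A (1.36), Men (2.69), Got2 (1.82), PCB (1.16) and Idh3g (0.89) rose, against 9.16% of all features. Got1 (-1.73), Pepck1 (-2.11), Ogdh (-1.25) and Pdk (-1.15) fell, against 8.23%. Genes named in the shorter changes and those in the plot of neighbouring pathways were chosen after their values were seen. Replicate letters recur in all stages but do not pair arrays by the rule used: all 3 same-letter correlations of deviations passed 0.1 in 18 of 55 stage pairs. Arrays of a letter still shared some deviation. The median correlation was 0.11 for the same letter and -0.05 for different letters, and 30 of 33 arrays correlated best with their own letter. The main fit has no term for the letter, and a fit with the replicate block is given below.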

Additional observations from a re-analysis of the deposited data

How the results depend on the processing

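The longer changes and steps of the glycolytic genes were recomputed with arrays centred on their medians, quantile normalization, at least 1 value per stage, only features with values on all arrays, single probes, robust variances, the letters b and c only, the compared stages only, and without each array. With the replicate block every count of called glycolytic genes was as without it (5 from 18 to 4 h BPF, 6 from 0 to 6 h), and 30 of 33 arrays correlated best with their own letter. Apart from left-out arrays, 388 values were recomputed: 368 kept direction and call, 15 lost a call, 1 gained one and 4 reversed. Of 250 values without 1 array, 225 kept both, 14 lost a call and 11 reversed. Both tallies cover the longer changes and the called steps, where the gene could still be tested. Calls gained without 1 array in steps not called before are outside them. These were Pfk from 18 to 4 h BPF, Pgi and Gpdh1 from 8 to 10 h, and Eno from 10 to 12 h.

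All reversals were of differences that were not called. The Gpdh1 difference from 2 to 6 h was 0.04 with centred arrays, 0.20 after quantile normalization and 0.08 with letters b and c, and ran from -0.27 to 0.26 without single arrays. Gpdh1 over the whole interval was -0.14 with letters b and c. Without single arrays Gpdh1 from 0 to 6 h ran from -0.08 to 0.40, Gapdh1 over the whole interval from -0.05 to 0.38, Eno over the whole interval from -0.08 to 0.25, and from 6 to 12 h Pgi from -0.04 to 0.46, Gapdh1 from -0.30 to 0.13 and Pglym78 from -0.46 to 0.06.

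The larger changes in counts of called genes were as follows, and smaller shifts under settings other than single arrays are left out. Using complete features only took Tpi, Pgk and Eno out of every count. From 0 to 2 h the count was 0 after quantile normalization and with letters b and c, and 0 to 1 without single arrays. With complete features only, it was 1 from 6 to 12 h and 0 from 4 h BPF to 0 h, since Tpi, Pgk and Eno lack values. With the compared stages only, it was 2 over the whole interval and 0 from 4 h BPF to 0 h; fewer arrays then estimate the spread. Without single arrays it was 2 to 3 over the whole interval, 3 to 6 from 18 to 4 h BPF, 0 to 1 from 4 h BPF to 0 h (Tpi is then untested where it loses a value), 0 to 1 from 6 to 8 h, 0 to 2 from 8 to 10 h and 0 to 1 from 10 to 12 h. The fits without single arrays also gave 5 to 6 from 18 h BPF to 0 h and 2 to 3 from 6 to 12 h. They gave 4 to 6 from 2 to 6 h and 5 to 7 over the time course, where every gene still tested was called. Pfk fell from 6 to 12 h after quantile normalization (-0.63, adjusted p = 0.0339). Where no construction is named the cause was not tested. Reading the values as natural logarithms gave an SD of 0.2 for the mixture check, and 0.773 with the sign reversed, against 0.497 for reversed log2. The SD orders the bases alike in both directions, so it does not choose between them. The planned search for promoter motifs was not run, as no sequence was used here.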
